A study of Oryctolagus cuniculus with 30 samples.

Results

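This report follows rabbit ear epidermis in wounds exposed to the air, from day 3 to day 5 after the wound surface had closed. The members are the 6 arrays labelled as non-occluded wounds at day 5 and the 6 labelled the same way at day 3, 12 of the 30 arrays of the series, chosen by their titles alone. Female New Zealand White rabbits received shallow grids of incisions on both ears, and every wound lay under a single film dressing until it had re-epithelialized (day 0). Right ears then had the film taken off (uncovered), and left ears received extra layers of it (covered). Every sample, controls included, was soaked in ammonium thiocyanate (0.5 M, 30 min) to free the epidermis, and labelled RNA from 400 ng of total RNA was hybridised to a one-colour rabbit array of 60-base probes. The groups used beside the members are unwounded epidermis (2 arrays), wounds at closure (6), covered wounds at day 3 (5) and covered wounds at day 5 (5). No strain other than New Zealand White, no transgene and no agent besides the dressing separates the groups. The labels do not say which samples came from which animal, so the p-values measure the spread between these samples.

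The epidermis is a layered sheet of keratinocytes that divide at its base and mature as they move outward, ending as the flattened, cross-linked cells of the barrier. After a wound is closed by migrating keratinocytes, the new sheet is thickened and immature, and it returns to its usual layering over the following days while the barrier is rebuilt. A film dressing keeps water in the new epidermis, and removing it exposes the young barrier to dry air. In tissue RNA, fewer cells of a type and less RNA per cell cannot be told apart.

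The array carries 23369 probes designed on rabbit sequence reads and contigs, and the files give each probe a clone, contig or GenBank name but no gene. Probes are therefore called by their array names, and neither genes nor cell type markers could be assigned, so the labelled tissue could not be checked against its defining markers. The letters in a probe name (AF, AM or UN) are the array's own design classes, whose meaning is not given in the sources used here. Levels are log2 processed signals relative to the 75th percentile of the same array, and a probe was tested where it was well above background on at least 2 arrays, which left 12342 probes.

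The first 5 sequences below are those of the largest rises among probes detected on each of the 12 arrays, and the last pair those with the largest bounds among probes detected at day 5 only. They are shown because their base composition is described in the results that follow. Letters run 5′ to 3′ as on the array, and capitals mark CGCCCCC, its reverse complement GGGGGCG, or AATAAA, the hexamer that precedes most polyadenylation sites.
UF_Ocu_AF_108414: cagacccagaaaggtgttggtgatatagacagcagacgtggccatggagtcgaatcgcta
UF_Ocu_UN_120923: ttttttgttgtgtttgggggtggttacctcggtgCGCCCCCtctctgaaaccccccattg
UF_Ocu_AF_108052: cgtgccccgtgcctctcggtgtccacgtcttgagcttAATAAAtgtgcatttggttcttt
UF_Ocu_UN_119974: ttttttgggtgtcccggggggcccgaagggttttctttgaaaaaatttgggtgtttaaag
UF_Ocu_UN_118966: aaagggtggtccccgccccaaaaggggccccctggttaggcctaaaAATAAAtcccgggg
UF_Ocu_AF_103486: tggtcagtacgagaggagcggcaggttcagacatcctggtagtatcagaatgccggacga
UF_Ocu_UN_118225: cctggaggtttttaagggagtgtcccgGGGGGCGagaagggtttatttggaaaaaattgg

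The next set holds the 5 largest falls among probes detected on each of the 12 arrays and, as the last pair, the 2 largest bounds among probes detected at day 3 only, with the same marks.
UF_Ocu_UN_120397: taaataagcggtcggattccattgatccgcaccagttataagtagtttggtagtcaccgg
UF_Ocu_AF_111918: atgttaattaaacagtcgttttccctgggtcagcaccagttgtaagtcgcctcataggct
UF_Ocu_AF_100831: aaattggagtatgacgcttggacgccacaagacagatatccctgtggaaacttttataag
UF_Ocu_UN_123329: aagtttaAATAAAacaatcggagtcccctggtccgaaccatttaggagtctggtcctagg
UF_Ocu_AF_108658: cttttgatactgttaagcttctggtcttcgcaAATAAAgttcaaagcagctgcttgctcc
UF_Ocu_AF_111919: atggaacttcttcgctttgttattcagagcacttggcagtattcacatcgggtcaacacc
UF_Ocu_AF_101376: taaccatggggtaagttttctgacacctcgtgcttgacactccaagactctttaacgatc

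Between day 3 and day 5 in open air the epidermal RNA profile moved broadly. Of 12342 probes tested, 5531 (44.8%) were called by limma at a Benjamini-Hochberg adjusted p under 0.05. At least 2-fold changes were far more often rises than falls: 1918 probes (15.5%) rose and 361 (2.92%) fell by that much. Counting every call, 3504 probes (28.4%) were higher and 2027 (16.4%) lower at day 5, so 63.4% of the calls were rises. That split follows the scaling, because the median change of all tested probes was 0.27 in this scaling, -0.04 after quantile normalization and -0.02 in the authors' own values, where 41.9% and 42.8% of the calls were rises. With each array scaled to its spike-in controls, RNAs of known sequence detected by control probes, 31.8% of 3647 calls were rises. The 2-fold rises exceeded the 2-fold falls under quantile normalization (1073 against 1059) and in the authors' values (533 against 254), but with spike-in scaling 977 rose and 1112 fell.

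**Figure D1:**
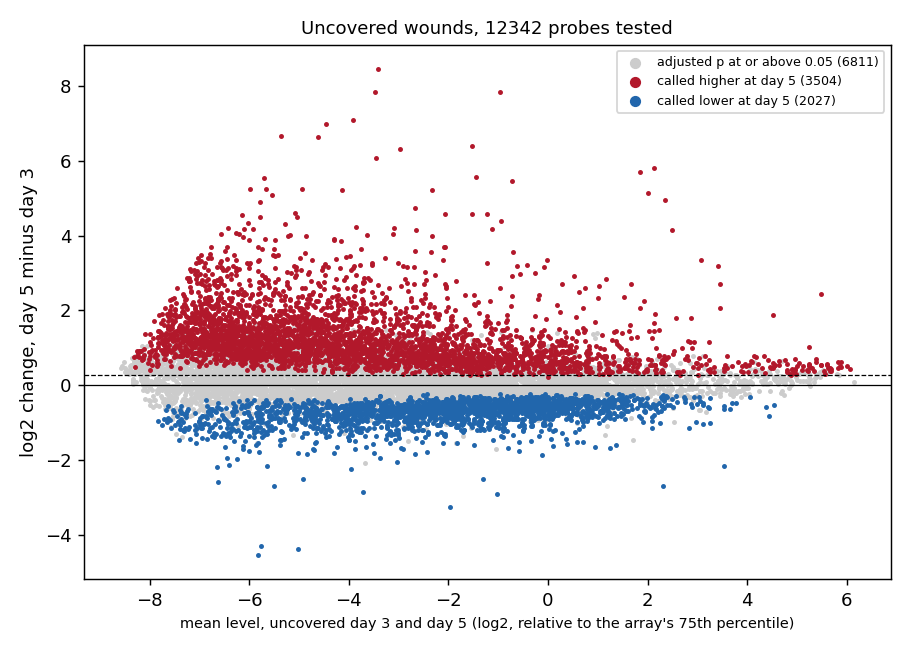
Each point is one of the 12342 tested probes, with its mean level in uncovered wounds on the x axis (log2, relative to the array's 75th percentile) and its log2 change from day 3 to day 5 on the y axis. Red marks the 3504 probes called higher and blue the 2027 called lower, the dashed line is the median change of 0.27, and the largest rises reach further from 0 than the largest falls.

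No 2 arrays of the 12 members were identical. Their signal was lower at day 5: the level to which each array was scaled ran from 12.71 to 13.22 (log2) at day 3. At day 5 it ran from 11.92 to 12.71. Pairs of arrays of one group correlated between 0.946 and 0.989 over the tested probes, and between 40.1% and 46.9% of all probes were well above background on each. The day 3 arrays differed more among themselves: the median standard deviation of a probe was 0.42 at day 3 and 0.24 at day 5, and 80% of probes had the larger spread at day 3. Without day 3 replicate 5 the day 3 value was 0.37. On 4 slides that carried an array of each day, a probe's call from the other slides had the same direction as its change on the slide in 88.4% to 98.3% of called probes. On each of these slides the day 3 array sat at position 1 or 2 and the day 5 array at 3 or 4, and with position as a block 4942 probes were called. The number of arrays limits the precision.

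UF_Ocu_AF_108414, on clone nag33b06.y1, had the largest rise among probes measured above background on all 12 arrays. Its log2 level ran from -6.31 through a median of -5.05 to -3.31 at day 3 and from 1.38 through 3.23 to 4.54 at day 5. The groups did not overlap. The change was 7.85 ± 0.68 (SE, n = 6 and 6), 231-fold, with a limma adjusted p of 2.56e-09. It stood at -1.58 and -2.80 in the unwounded arrays, so every day 5 array lay above both of them. Covered wounds rose too, by 6.38 ± 0.79 (limma adjusted p = 3.57e-06), from a median of -4.76 to 1.83.

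UF_Ocu_UN_120923, on clone nbd17d06.x1, is the probe with the C-rich motif in the first set of sequences. Its level ran from -5.57 through -4.81 to -3.45 at day 3 and from 1.02 through 1.56 to 2.49 at day 5, with no overlap. It rose by 6.40 ± 0.55 (84.7-fold, limma adjusted p = 1.47e-09), against 3.68 ± 0.60 under cover. The difference of 2.73 ± 0.81 between those 2 changes did not pass the test (limma adjusted p = 0.152).

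UF_Ocu_AF_108052 and UF_Ocu_UN_119974 were already bright in unwounded epidermis. UF_Ocu_AF_108052 ran from -1.48 through -1.34 to 1.78 at day 3 and from 4.51 through 5.06 to 5.78 at day 5, a rise of 5.82 ± 0.61 (56.4-fold, limma adjusted p = 4.62e-08), with unwounded values of 1.69 and 2.40. UF_Ocu_UN_119974 ran from -2.55 through -1.32 to 1.91 at day 3 and from 4.29 through 4.71 to 5.01 at day 5. It rose by 5.69 ± 0.80 (limma adjusted p = 3.98e-06), and its unwounded values of 3.07 and 4.08 lay below the day 5 range. In both, day 3 replicate 3 was the high array at day 3, and the days did not overlap with it included.

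The other 6 rises chosen by the same rule were UF_Ocu_UN_118966 (5.58), UF_Ocu_UN_119233 (5.45), UF_Ocu_AF_106134 (5.21), UF_Ocu_AF_103381 (5.15), UF_Ocu_UN_116185 (4.95) and UF_Ocu_UN_121523 (4.74). None overlapped between the days, which the choice by largest change on these same arrays favours. All were called higher under cover as well, with covered changes from 2.33 to 4.63, against 15.1% of all tested probes called higher there. UF_Ocu_AF_106134, of 78.3% GC, has a second tested probe on its clone, UF_Ocu_AF_106133, which rose by 2.43 ± 0.51 (limma adjusted p = 0.000521). Of the 10 probes, 6 belong to the UN class, against 20.8% of all tested probes.

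**Figure D2:**
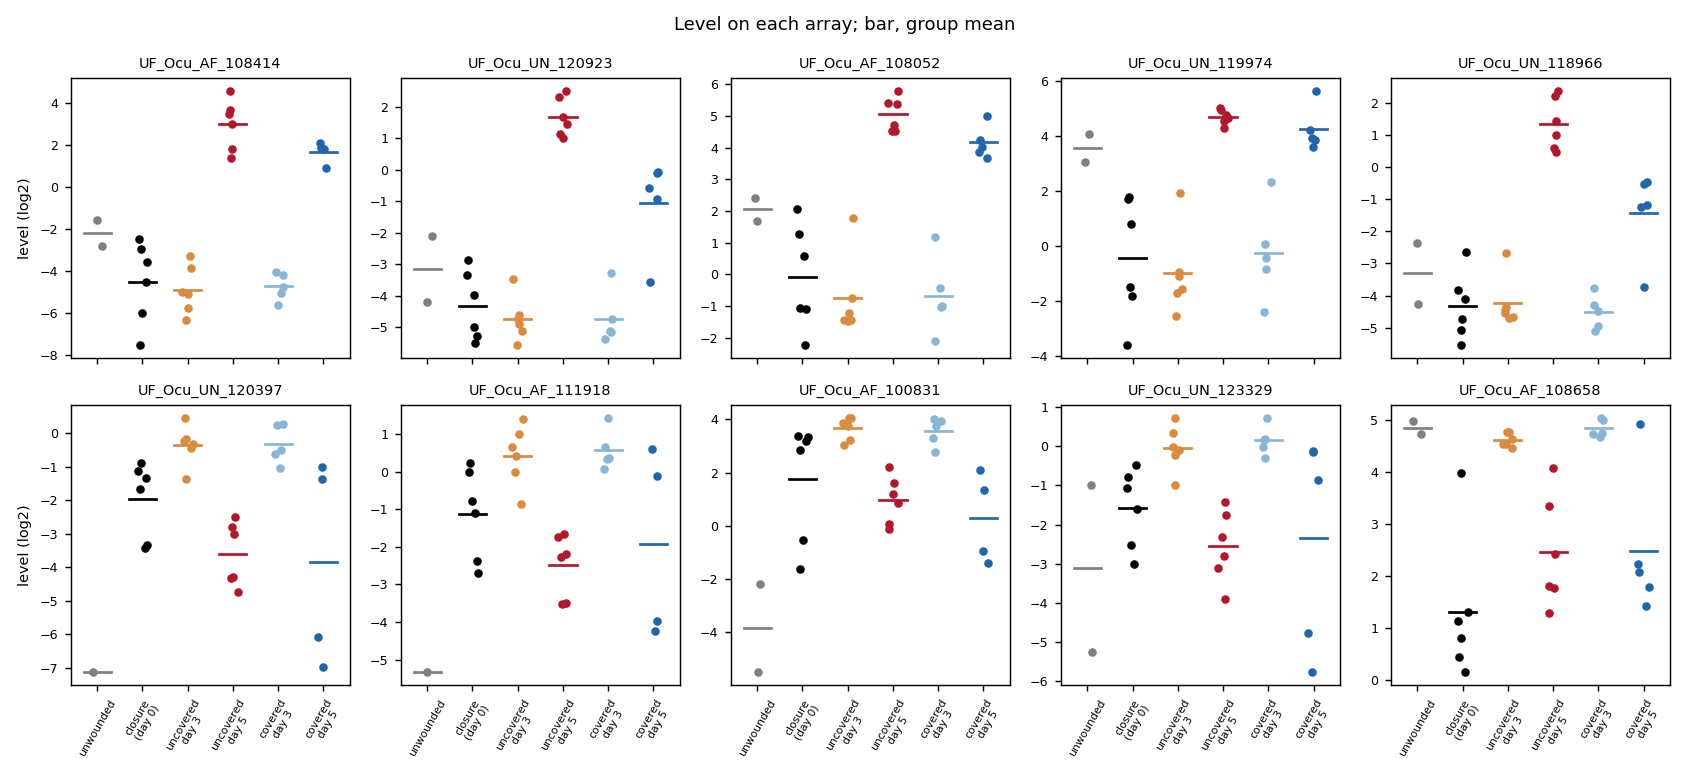
Log2 level of 10 probes on every array, by group, with the group mean as a bar. The group means of the 5 largest rises (top) go up from day 3 to day 5 in uncovered and covered wounds alike. Those of the 5 largest falls (bottom) go down, with covered day 5 arrays widely spread, as from -6.97 to -1.02 for UF_Ocu_UN_120397.

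Falls were smaller. The largest among probes above background on all 12 arrays was UF_Ocu_UN_120397, which ran from -1.35 through -0.28 to 0.46 at day 3 and from -4.75 through -3.65 to -2.50 at day 5. The days did not overlap, and the change was -3.27 ± 0.76 (9.62-fold lower, limma adjusted p = 0.00153). Under cover it fell by 3.53 ± 0.88 on the log2 scale (limma adjusted p = 0.00706). Its covered day 5 arrays were split, at -1.02, -1.36, -6.97 and -6.08 with replicate 1 missing, against -1.03 to 0.28 at day 3. Covered day 5 arrays of UF_Ocu_AF_111918 and UF_Ocu_UN_123329, described below, also ranged widely, from -4.24 to 0.61 and from -5.77 to -0.12.

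The clone naf07a03.x1 had a pair of probes that fell together. UF_Ocu_AF_111918 ran from -0.87 through 0.54 to 1.40 at day 3 and from -3.52 through -2.23 to -1.66 at day 5, a change of -2.91 ± 0.68 (limma adjusted p = 0.0016). UF_Ocu_AF_111919 was above background on all 6 day 3 arrays and on 0 of 6 at day 5, so its fall is a bound of at least 5.47-fold (fitted change -4.55 ± 0.69, limma adjusted p = 1.28e-05). Here and below, a bound sets the brighter group's mean against, for each dim array, the higher of the lowest signal well above background and the probe's own. Both were near their day 3 levels in covered wounds at day 3, and UF_Ocu_AF_111919 was at -8.44 and -9.15 in unwounded epidermis.

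UF_Ocu_UN_123329 changed by -2.50 ± 0.79 (limma adjusted p = 0.0128) and did not overlap between the days. Some falls were not shared by the second probe of the contig. UF_Ocu_AF_100831 fell by 2.69 ± 0.77 on the log2 scale (limma adjusted p = 0.00685), while UF_Ocu_AF_100832 on the same contig, R4Sub.22.C1, changed by 0.27 ± 0.17 (limma adjusted p = 0.188). UF_Ocu_AF_108658 ran from 4.47 through 4.59 to 4.76 at day 3 and from 1.28 through 2.12 to 4.08 at day 5, a change of -2.17 ± 0.54 (limma adjusted p = 0.00249). Its neighbour on contig R4.4151.C1, UF_Ocu_AF_108659, changed by 0.09 ± 0.23 (limma adjusted p = 0.749). UF_Ocu_AF_104267 changed by -1.94 ± 0.27 (limma adjusted p = 3.06e-06). The other tested probe of its contig R4.351.C1, UF_Ocu_AF_104266, changed by -0.2 ± 0.48 (limma adjusted p = 0.75) and was above background on few of these arrays. Contigs naf32b03.y1 and R4.sd.278.C1 did fall at both probes, by 2.05 and 2.24 on the log2 scale at UF_Ocu_AF_111148 and UF_Ocu_AF_111149 and with changes of -1.84 and -1.78 at UF_Ocu_AF_113340 and UF_Ocu_AF_113341.

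UF_Ocu_UN_117997 and UF_Ocu_AM_115100, which both fell, carry an identical run of 13 bases, given in capitals here because no other tested probe holds it.
UF_Ocu_UN_117997: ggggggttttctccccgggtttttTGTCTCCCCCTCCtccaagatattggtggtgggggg
UF_Ocu_AM_115100: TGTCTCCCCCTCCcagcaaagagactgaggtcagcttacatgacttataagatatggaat
The run was looked for after their values were seen, among all pairs of the falling probes named by the rules. UF_Ocu_UN_117997 ran from -1.63 through 0.93 to 2.33 at day 3 and from -1.91 through -1.07 to -0.30 at day 5, and UF_Ocu_AM_115100 from -1.82 through 0.20 to 2.28 and from -2.02 through -1.65 to -0.86. In each, the days overlapped through day 3 replicate 4, which was low, and replicate 5 was the highest. Both were bright at closure (medians 2.25 and 2.16) and dim in covered wounds at day 3 (medians -3.41 and -2.71). The tested AF probes of the contig gb_C84553.1, UF_Ocu_AF_103596 and UF_Ocu_AF_103597, had changes of 0.95 and 0.99 with limma adjusted p-values of 0.0672 and 0.082.

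Some probes crossed the detection limit. Of the 12342 tested probes, 79 were well above background on no day 3 array and on all 6 day 5 arrays, and all 79 were called. In the opposite direction there were 12, of which 11 were called. Of all tested probes 44.8% were called. Probes picked by detection on the same arrays are nearly bound to be called, so these counts add no support. UF_Ocu_AF_103486 had the largest bound, at least 46.6-fold higher at day 5 (limma adjusted p = 0.000102), followed by UF_Ocu_UN_118225 at 36.7 and UF_Ocu_AF_107910 at 22.1. UF_Ocu_AF_103486 and UF_Ocu_AF_107910 were bright in the unwounded arrays (1.37 and 3.84, and 0.56 and 4.44), and their covered day 5 arrays ranged from -1.48 to 5.46 and from -2.40 to 5.27. For both probes the higher unwounded value was replicate 2 and the highest covered day 5 value was replicate 1. Those arrays shared a slide and a scan day with each other and with no other array. UF_Ocu_UN_118225 was dim in unwounded epidermis, at -3.97 and -7.12. UF_Ocu_AF_101376 fell by at least 5.27-fold, the largest bound among falls after UF_Ocu_AF_111919. The other bounds named by the rule were 18.2 for UF_Ocu_UN_115442 and 13.2 for UF_Ocu_AF_111059 among rises, and 3.44 for UF_Ocu_UN_117974, 2.56 for UF_Ocu_AF_114011 and 1.83 for UF_Ocu_AF_102800 among falls. UF_Ocu_UN_122457, on the clone of UF_Ocu_UN_118225, rose by only 0.69 ± 0.24 (limma adjusted p = 0.0219), against a fitted 6.65. UF_Ocu_AF_111060, the partner of UF_Ocu_AF_111059, rose by 0.88 ± 0.25 (limma adjusted p = 0.00653), against a fitted 4.61. UF_Ocu_AF_107909 and UF_Ocu_AF_114012, partners of UF_Ocu_AF_107910 and UF_Ocu_AF_114011, had changes of 5.55 and -2.13. UF_Ocu_AF_102800 lost its call without day 3 replicate 5 (limma adjusted p = 0.0666, against 0.0189 with it).

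The 1918 probes that rose at least 2-fold had a median level of -5.96 at day 3 and -4.24 at day 5 in uncovered wounds, -5.47 in unwounded epidermis and -6.14 at closure, against -3.64 and -3.70 in the last 2 groups for all tested probes. Dim probes made up much of that list, since 27.7% of the dimmest 25% of probes and 4.18% of the brightest rose that far. The 361 that fell had medians of -2.98 and -4.35 in uncovered wounds, -3.55 in unwounded epidermis and -3.15 at closure. The choice of probes bears on all of these levels.

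Probe composition went with the change. Probes of at most 35% GC had a median change of -0.31, 0.58 below the median of all probes, and those over 60% GC had 0.67, 0.40 above it. In the first class 8.93% of probes were called higher and 39.9% lower, against 28.4% and 16.4% of all tested probes, and in the last 48.4% and 0.78%. The gap between the classes was 0.98 and stayed between 0.60 and 0.98 under quantile normalization, normexp background correction, percentile scaling over all probes, spike-in scaling and the authors' values. Within the 4 slides that held both days it was 0.68 to 1.28. Among the brightest 25% of probes the medians were -0.31 at 35% GC or less and 0.48 over 55%, and in the dimmest 25% -0.05 and 0.75.

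**Figure D3:**
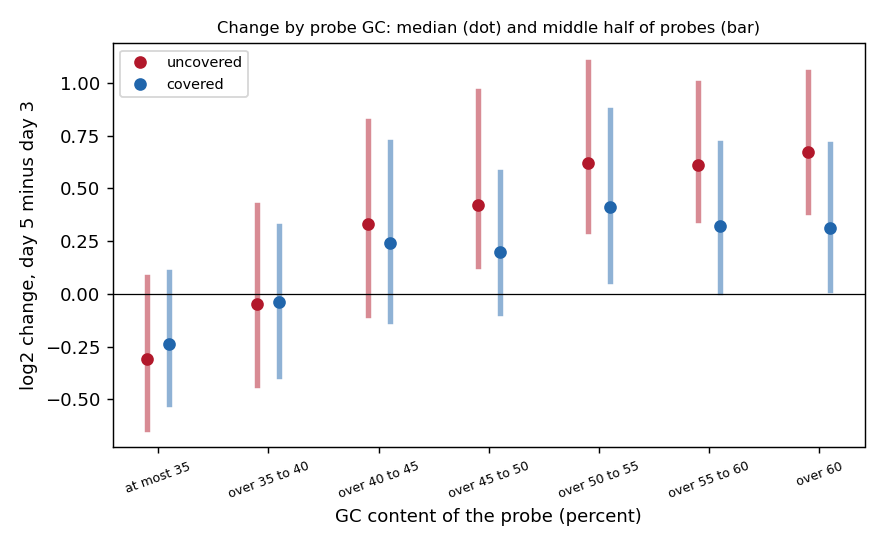
Log2 change from day 3 to day 5 (y axis) for probes grouped by GC content (x axis), in uncovered (red) and covered (blue) wounds, with the median as a dot and the middle 50% of probes as a bar. The uncovered median climbs from -0.31 at 35% GC or less to 0.67 above 60%, and the covered median from -0.24 to 0.31.

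The same pattern can be read array by array, as the slope of each probe's deviation from its mean over all 30 arrays on GC content. The slope per 10 percentage points of GC was between -0.24 and 0.06 on the day 3 arrays and between 0.23 and 0.40 on the day 5 arrays, with no overlap. Covered day 5 arrays had 0.11 to 0.21 except replicate 1, at -0.35, which was scanned on another day from the rest of its group. The signal at the 75th percentile also moved, from 12.71 to 13.22 (log2) at day 3 to 11.92 to 12.71 at day 5, and the spike-in controls lay at 0.40 ± 0.32 and 0.72 ± 0.32 (SD, n = 6 each) relative to it. The part of GC content and signal in the changes was not tested. With the GC trend of each array removed, an alternative added after the pattern had been seen, 4137 probes were called, 1907 higher and 2230 lower. Of the 3504 rises 1648 were called again as rises, and of the 2027 falls 1362 as falls. At least 2-fold rises then numbered 1049 and falls 422. All 20 probes named above for the largest changes kept their call.

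**Figure D4:**
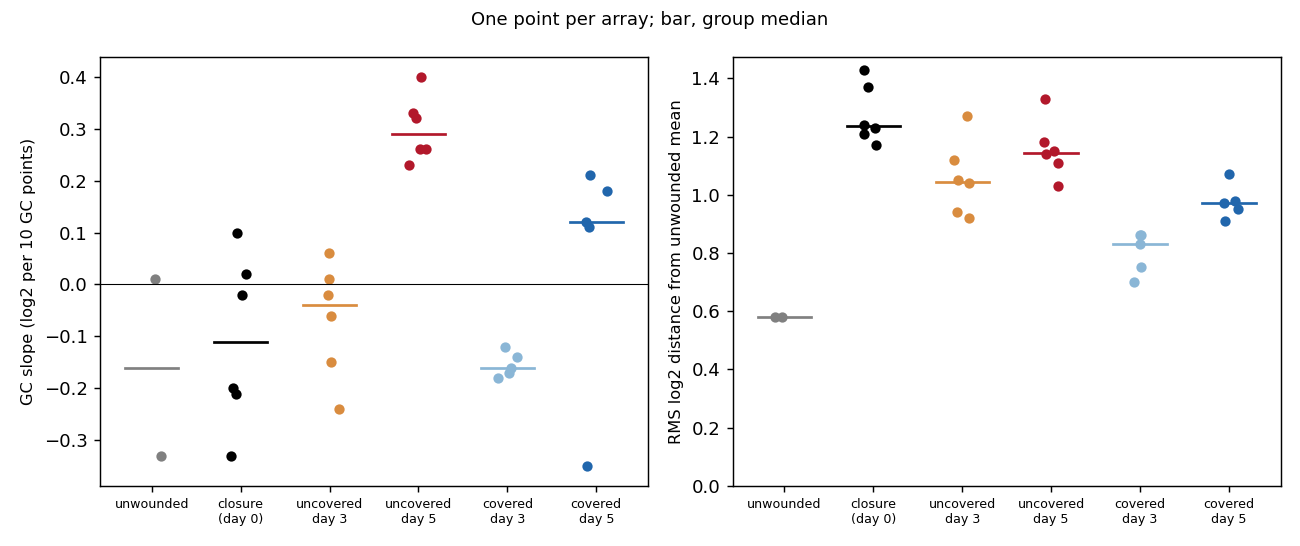
One point per array in each group. Left, the slope of probe deviations on GC content (log2 per 10 GC points), where uncovered day 5 arrays (0.23 to 0.40) lie above uncovered day 3 arrays (-0.24 to 0.06). Right, the root mean square log2 distance from the mean of the unwounded arrays, where the 2 uncovered days overlap.

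The C-rich sequence marked in the first set of probes recurred among the rises. It was picked after the values were seen, in a search over all short sequences of several lengths ranked in 2 ways and of several picked by eye, and so carries no test. It lies, as read, in 105 tested probes (0.851%), of which 84 (80%) were called higher and 0 lower, with a median change of 1.34. Of all tested probes 28.4% were called higher and 16.4% lower, and of those over 60% GC 48.4% and 0.78%. The sequence itself is all G and C. Its reverse complement lies in 69 (0.559%), with 27 higher, 1 lower and a median of 0.58; the complement was not picked for its values, so the pair is not a like comparison. Of the 499 probes that rose at least 4-fold, 34 (6.81%) held the sequence and 7 (1.40%) its complement. The hexamer, all A and T, was in 10.6% of all tested probes and 3.01% of these. The part of GC content in the figures for the sequence, its complement and the hexamer was not tested. The 499 probes were also richer in long single-base runs, such as those in UF_Ocu_UN_119974: 25.9% had at most 36 runs in their 60 bases, against 13.6% of all tested probes, a limit set after the sequences had been seen.

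Where a contig or clone had 2 tested probes, the AF class gave like changes and the UN class did not. Over 4137 contigs with a pair of AF probes the changes correlated at 0.837 (Pearson, across contigs, which are not replicates). In 803 both probes were called higher, in 703 both lower and in 15 they were called in opposite directions. Both rose at least 2-fold in 369 and both fell as much in 93. Over 419 contigs with a pair of UN probes the correlation was 0.0902, with 62 both higher, 4 both lower and 13 opposite. A single probe was called in 194 UN and 912 AF contigs, and neither in 146 and 1704. Of all tested UN probes 31.3% were called higher and 6.93% lower, and of AF probes 27.5% and 19.1%.

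**Figure D5:**
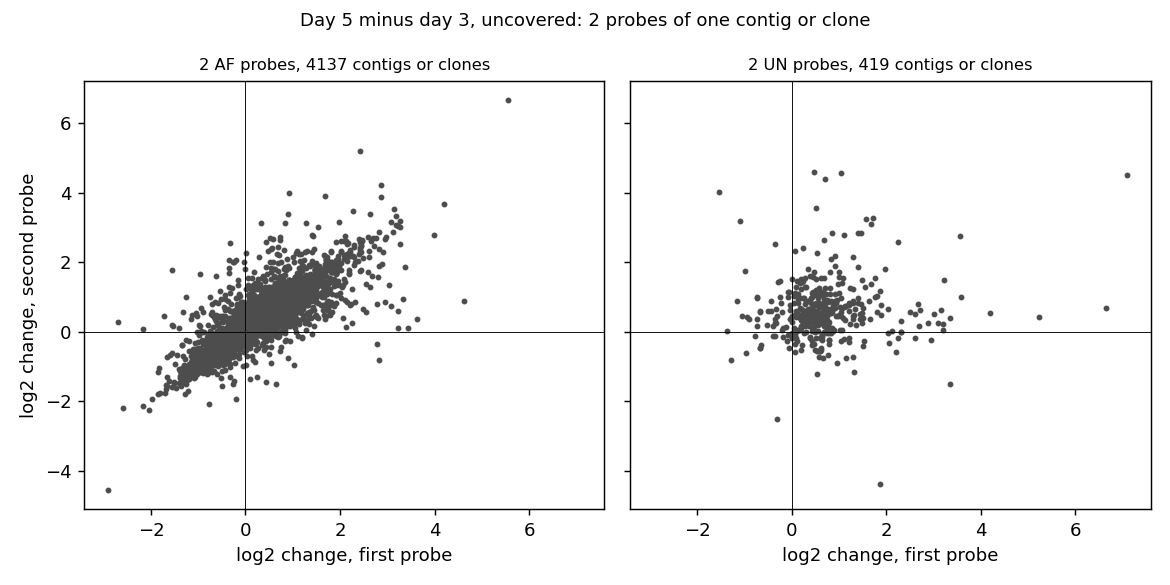
Log2 change from day 3 to day 5 of the first (x axis) and second (y axis) probe of each contig or clone with 2 tested probes, for 4137 AF pairs (left, Pearson r = 0.837) and 419 UN pairs (right, r = 0.0902). The AF pairs lie along the diagonal and the UN pairs do not.

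Covered wounds, which share no array with the uncovered ones, mostly moved in the same direction among probes called in both. The arms may still share animals, as right and left ears, and they share slides. Of the tested probes 2747 (22.3%) were called between day 3 and day 5 under cover, 1860 (15.1%) higher and 887 (7.19%) lower. Without covered day 3 replicate 1, 2 or 3 the total was 1819, 1799 and 1799. This split too follows the scaling: 67.7% of the calls were rises here, 49.2% after quantile normalization, 44.6% in the authors' values, 46.7% with the GC trend removed and 88.1% of 873 calls with spike-in scaling. The probes higher in both numbered 1439, 41.1% of the uncovered and 77.4% of the covered rises. Those lower in both numbered 626, 30.9% of the uncovered and 70.6% of the covered falls. Only 3 probes rose uncovered and fell covered, and 5 did the reverse, among those called in both. The probes that rose at least 2-fold uncovered had a median covered change of 1.07, against 0.12 for all probes, and were above 0 under cover in 97.6% of cases, against 58.7%.

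The test of the difference between the uncovered and covered changes called 15 probes (0.122%), 13 (0.105%) with the larger value uncovered and 2 (0.0162%) with the smaller. Among the 12342 probes tested, UF_Ocu_UN_119233 rose by 5.45 ± 0.26 uncovered and 3.37 ± 0.30 covered, a difference of 2.08 ± 0.40 (limma adjusted p = 0.0287). UF_Ocu_UN_121753 differed by 2.80 ± 0.58 (limma adjusted p = 0.0421), with covered day 5 arrays from -4.23 to -0.77. The other tested probe of its clone, UF_Ocu_UN_119928, differed by 0.33 ± 0.39 (limma adjusted p = 0.784). UF_Ocu_AM_114927 was called too (limma adjusted p = 0.0358), but it was above background on no day 3 array of either arm and on 3 of 5 covered day 5 arrays, so the size of its difference was not measured. Its contig's other probes, UF_Ocu_AF_106768 and UF_Ocu_AF_106769, had differences of 0.42 and 1.16 that did not pass (limma adjusted p = 0.558 and 0.691). UF_Ocu_AF_113170 (1.89) and UF_Ocu_AF_102619 (1.83) complete the positive differences named here, since 8 of the 15 called probes were above background on all 6 arrays of either uncovered day and 1 probe was taken per contig. Their partners UF_Ocu_AF_113169 (1.01) and UF_Ocu_AF_102618 (1.65) did not pass (limma adjusted p = 0.538 and 0.293). UF_Ocu_AF_102619 rose from a median of -0.70 to 0.65 uncovered and stood at 0.26 and -0.08 under cover. UF_Ocu_AF_112137 ran from -0.42 through -0.19 to -0.09 at day 3 and from -1.22 through -1.0 to -0.79 at day 5 uncovered, with medians of -0.48 and -0.51 under cover, a difference of -0.78 ± 0.15 (limma adjusted p = 0.0276). Its partner UF_Ocu_AF_112138 had -0.68 ± 0.19 (limma adjusted p = 0.124). The -4.23 of UF_Ocu_UN_121753 was covered day 5 replicate 1, scanned on another day, with the others from -1.68 to -0.77. That array was also low for UF_Ocu_AM_114927 (-7.71) and UF_Ocu_AF_113170 (-5.51) and had no value for UF_Ocu_UN_119233. For UF_Ocu_AF_102619 (-0.33) and UF_Ocu_AF_112137 (-0.65) it lay closer to the rest. The part of this array in the differences was not tested. With the replicate block, or with position on the slide as a block, none of these 6 probes passed. The count was 8 in each of those fits. It fell to between 5 and 9 without uncovered day 3 replicate 2 or 5, uncovered day 5 replicate 5 or 6, or covered day 3 replicate 1, 2, 3 or 5, and rose to 41 without uncovered day 3 replicate 4, to 24 without covered day 5 replicate 1 and to 25 without covered day 5 replicate 3.

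Many of these probes differed the other way between unwounded epidermis and wounds at closure. No slide held both of those groups. Of the closure arrays only replicate 1 shared a scan day with an unwounded array. Closure, slide and scan day therefore cannot be fully told apart. Between unwounded epidermis and wounds at closure, which share no array with the uncovered days, 4598 probes (37.3%) were called, 2107 (17.1%) higher and 2491 (20.2%) lower. The count was 2575 without unwounded replicate 2, and rises were 45.8% of the calls here, 60.5% with normexp and 27.5% with spike-in scaling. Of the 3504 uncovered rises from day 3 to day 5, 1003 (28.6%) had been lower at closure and 176 (5.02%) higher. Of the 2027 falls, 667 (32.9%) had been higher at closure and 225 (11.1%) lower.

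The profile as a whole was not measurably nearer to unwounded epidermis at day 5. The distance of an array from the unwounded mean, as the root mean square log2 difference over tested probes, averaged 1.06 on the day 3 arrays (SD 0.13, n = 6), and the day 5 arrays averaged 1.16 (SD 0.10, n = 6). The day 3 arrays ran from 0.92 through a median of 1.04 to 1.27 and the day 5 arrays from 1.03 through 1.14 to 1.33, and they overlapped. The difference of 0.10 gave p = 0.162 in an exact two-sided permutation test over all splits of the 12 arrays, which can go as low as 0.00216. Without day 3 replicate 5 it was 0.14 (exact permutation p = 0.026). With the GC trend removed it was -0.07 (exact permutation p = 0.281).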

How the data were processed

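Intensity values came from the Agilent Feature Extraction 10.1.1.1 scanner files the authors deposited, per the file headers; the submitters' processing notes name limma, and the series table holds the authors' processed intensity. Flags and control types, coded as other values in the deposited files, removed control spots and outlier spots. The log2 signals of a probe's spots were averaged. Each array's 75th percentile was then subtracted, taken over the 7446 probes that all 30 arrays detected well above background. The 12342 probes so detected by 2 or more arrays were fitted with limma 3.58.1 (R 4.3.3; lmFit, eBayes, 6 groups, no block), with Benjamini-Hochberg adjustment over all of them. The same fit gave the covered change, its difference from the uncovered one, and closure against unwounded epidermis. The distance was tested by exact permutation. Named probes were the 10 highest and 10 lowest changes among called probes above background and unsaturated on all 12 arrays and of 1 direction on every shared slide; the 5 largest bounds each way; and the 5 most positive and negative called differences, 1 per contig. The members, lists and rules were chosen with earlier results of these data known. On simulated data for uncovered day 5 minus day 3 (12342 probes, 200 changed), 31.3%, 50.7% and 77.3% of changes of 1.5-, 2- and 4-fold were recovered, with 3 false calls. Far more probes were called in the data (5531), so these rates may not hold there. Gene names, gene lists and markers were not used here, since the files and the table given do not pair probes with genes. Same-numbered day 3 and day 5 arrays correlated in their deviations at -0.105 to 0.404, so the numbers were not taken as pairs. Alternatives covered scaling, background, filter, slide, scan day, replicate number, array weights and leaving out arrays; slide position, spike-in scaling and GC trend were added after seeing the data.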

Additional observations from a re-analysis of the deposited data

Results flagged for a closer look

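On day 3 of the uncovered wounds, replicate 3 stood apart from the other 5 arrays for 6 named probes. Its level was 1.78 for UF_Ocu_AF_108052 (next -0.76), 1.91 for UF_Ocu_UN_119974 (next -0.95), -2.66 for UF_Ocu_UN_118966 (next -4.37), 0.84 for UF_Ocu_AF_103381 (next -0.66), 1.17 for UF_Ocu_UN_116185 (next -0.27) and -2.59 for UF_Ocu_UN_121753 (next -3.47). At day 5, replicate 5 was low for UF_Ocu_AF_111148 at -4.53 (next -4.09). Of 74 groups looked at, 7 held such an array; chance flags about 1 in 20, and these probes share their arrays.

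The day 5 minus day 3 change differed between uncovered and covered wounds for 15 probes by limma's test of the difference. The named ones were UF_Ocu_UN_121753 (2.80), UF_Ocu_UN_119233 (2.08), UF_Ocu_AF_113170 (1.89), UF_Ocu_AF_102619 (1.83) and UF_Ocu_AF_112137 (-0.78). UF_Ocu_AM_114927 was called with a fitted value of 2.67, which is no measured size, since no day 3 array of either arm was above background.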

How the results depend on the processing

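The number of probes called between uncovered day 3 and day 5 (5531) stayed within 1.5 times under the alternatives run except normexp background correction (2295) and spike-in scaling (3647), and lay between 4252 and 5840 when 1 uncovered array was left out and at 6008 without covered day 5 replicate 1. With the replicate block it was 5539; same-numbered day 3 and day 5 arrays correlated at 0.26, 0.302 and 0.404 for the 3 numbers that shared a slide and at -0.105 to 0.0805 for the rest, and 3 of 6 day 3 arrays correlated best with their own number. The covered count (2747) was 688 with normexp, 6779 with array weights, 873 with spike-in scaling, 2931 with the replicate block, and 1799 to 3335 when 1 covered array was left out. The count at closure against unwounded epidermis (4598) was 2864 with normexp, 2747 with array weights, 3030 with spike-in scaling, 4077 with the replicate block, and 2575 to 4722 when 1 of its own arrays was left out.

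The count for the difference between the changes (15) moved under every alternative to the fit or the values: 25 with the percentile over all probes, 100 with quantile normalization, 197 with the authors' values, 8 with no filter on dim probes, 8 with the stricter filter, 36 with slide as a fixed and 109 as a random block, 60 with scan day as a block, 8 with the replicate block, 296 with array weights, 8 with slide position as a block, 41 with the GC trend removed, 32 with that and the replicate block, and 91 with that and the slide block. By limma it was 0 with normexp (661 probes at an unadjusted p under 0.05) and 0 with spike-in scaling (1446 probes). Leaving out 1 array gave 5 to 41.

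The distance (0.10) kept its direction except with the GC trend removed (-0.07) and within slide 11 (-0.12). It passed the test with the second unwounded array as the only reference (0.14, exact permutation p = 0.0476) and ran from 0.07 to 0.14 when 1 array was left out. The cause of these shifts was not tested. None of the 36 named values reversed under the alternatives run. Of 570 alternative values for the 30 named changes 6 lost the call, in 4 probes, and of 108 for the 6 named differences 44 did. Probes near background limit the smallest bounds.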
